A study of Capra hircus with 3 samples.

Results

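The RNAs described here are 4 annotated long noncoding RNA (lncRNA) genes of the goat, LOC102180344, LOC102178854, LOC106503270 and LOC102179299, out of 441 annotated lncRNA genes with values. They were chosen by their FPKM, because earlier comparisons of the same values had shown large ratios of the library labelled peak lactation over the libraries labelled early or late lactation. FPKM is a count of sequenced fragments scaled to transcript length and to the mapped fragments of the library. The height of the 4 genes in the peak-labelled library is therefore a description and supports nothing by itself. The deposited rows that carry their gene IDs number 11, and rows of one gene were summed.

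The tissue was mammary gland of the Laoshan dairy goat breed (Capra hircus), taken surgically from 5 healthy goats, 4 years old and in the third lactation, at 10, 90 and 210 days after parturition, labelled early, peak and late lactation. Surgery was done under general anaesthesia with xylazine, and the glands were sutured. As the methods describe it, the same goats were sampled at each stage, so later tissue came after earlier surgery. Stage and earlier surgery cannot be told apart. No other treatment is described. At each stage the RNA of the 5 goats was mixed into 1 library, so each value below is a single number with no replicate check, no error and no p-value. Variation between goats, or between samplings of a stage, was not measured. In mixed tissue, fewer cells of a type and less RNA per cell cannot be told apart either.

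The assignment of the value columns to stages rests on the sample descriptions alone. A supplementary list of lncRNA transcripts from the study, linked to these genes by RefSeq accession, places the high level of LOC102180344 and LOC102179299 in its late-lactation library and not in its peak-lactation library. Most of the other transcripts on that list that could be linked to annotated lncRNA genes in the same way also have the opposite order of peak and late there. The study further counts its fewest transcripts in the peak library and its most in the late library, whereas the deposited rows above 0 were most numerous in the peak-labelled library (49395) and least in the late-labelled one (48362). These counts are of unlike units. The study counted transcripts classed as mRNA or lncRNA, and 34764 of the 50041 deposited rows are assembled pieces without a gene ID. Nothing is therefore read from that difference. The column descriptions and the supplementary list thus give opposite orders, and no label or description settles which is right. Of the 6 milk synthesis genes described below, 5 were lowest in the peak-labelled library. Whether that bears on the order of the columns was not tested. The libraries are therefore called early-, peak- and late-labelled below, and each direction between the peak- and late-labelled libraries rests on those labels.

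The libraries differed as wholes. Between 1.29% (peak-labelled) and 3.36% (late-labelled) of rows were listed at 0, and the single highest row held 29.9% (late-labelled) to 46.0% (peak-labelled) of the summed FPKM. Over rows with at least 1 FPKM in each library, the median ratio to the early-labelled library was 0.968 in the peak-labelled and 0.994 in the late-labelled library, while the sum without the 10 highest rows was 0.834 and 0.971 of the early-labelled sum. No level was rescaled in the values below.

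The mammary gland passes through cycles of growth, milk secretion and regression, and it holds secretory epithelium, myoepithelium, fat, connective tissue, vessels and immune cells. An lncRNA is a transcript without a long open reading frame. Some lncRNAs act on chromatin or on the transcription of genes beside them, some are mainly precursors of small RNAs, and for many, including these 4, no role is given in the sources used here.

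LOC102180344 was listed at 2.02 FPKM in the early-labelled library, 30.6 FPKM in the peak-labelled library and 0 in the late-labelled library. It spans 1232 nt on scaffold NW_005100883.1, from 8108490 to 8109721, with a single row. Its level in the peak-labelled library was 15.1 times that in the early-labelled one, a log2 ratio of 3.92. No fold is given against the late-labelled library, since the gene is listed at 0 there.

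LOC102178854 had the same order of libraries, with 2.70 FPKM in the early-labelled, 15.3 FPKM in the peak-labelled and 0 in the late-labelled library. It is the shortest of the 4, a single row of 385 nt on scaffold NW_005100886.1 from 24090446 to 24090830. The peak-labelled level was 5.65 times the early-labelled one, a log2 ratio of 2.50.

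LOC106503270 was above 0 in all 3 libraries. Its 7 rows summed to 12.3 FPKM in the early-labelled, 33.9 FPKM in the peak-labelled and 3.90 FPKM in the late-labelled library. The sum was 2.75 times as high in the peak-labelled as in the early-labelled library and 8.70 times as high as in the late-labelled one. All 7 rows are given the same locus of 270187 nt, on scaffold NW_005100886.1 from 13815519 to 14085705, and rows of other genes carry that locus too.

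LOC102179299 had the lowest level of the 4 in the peak-labelled library. Its 2 rows summed to 2.91 FPKM in the early-labelled, 7.06 FPKM in the peak-labelled and 1.58 FPKM in the late-labelled library. The peak-labelled sum was 2.42 times the early-labelled and 4.47 times the late-labelled one. Both rows share a locus of 21734 nt on scaffold NW_005100811.1 from 15599729 to 15621462.

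**Figure D1:**
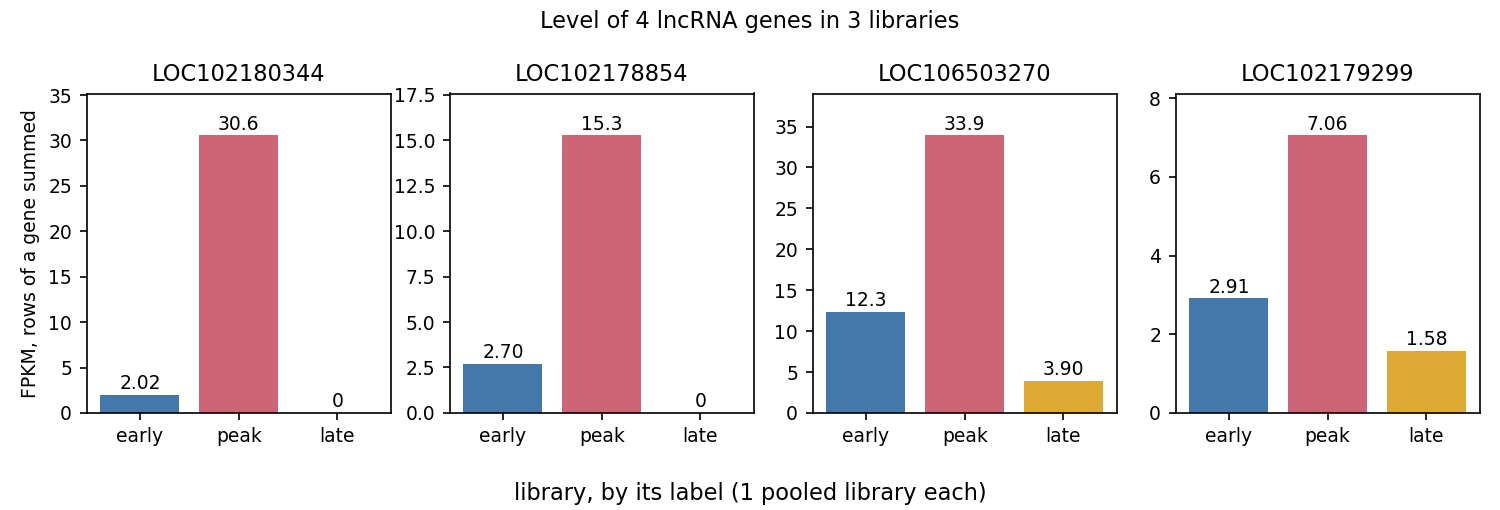
Bars give the FPKM of each of the 4 lncRNA genes, rows of a gene summed, in the early-, peak- and late-labelled libraries, on a linear axis of its own for each gene and with 1 pooled library per bar. The peak-labelled bar is the tallest in each panel, and LOC102180344 and LOC102178854 are listed at 0 in the late-labelled library.

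In each of the 4 genes the early-labelled library stood second and the late-labelled library lowest. The peak-labelled library held 93.8% of the FPKM summed over the 3 libraries for LOC102180344, 85.0% for LOC102178854, 67.6% for LOC106503270 and 61.1% for LOC102179299. The early-labelled library held 6.21%, 15.0%, 24.6% and 25.2% in the same order of genes. Early-labelled levels of LOC106503270 and LOC102179299 were 3.16 and 1.84 times their late-labelled levels.

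Of the 441 annotated lncRNA genes, 157 (35.6%) were highest in the peak-labelled library, and 44 (9.98%) were at least 2-fold higher there than in both other libraries. The 4 genes are among these 44 by the way they were chosen, and nothing is read from that count. By the fold over the higher of the other libraries, LOC102180344 ranked 6, behind 5 genes listed at 0 in both others, LOC102178854 ranked 9, LOC106503270 ranked 24 and LOC102179299 ranked 33. The median of this fold was 4.20 over the 4 genes and 0.74 over the lncRNA genes above 0 in another library. By FPKM in the peak-labelled library they ranked 23, 36, 20 and 81 among the 441, where the median lncRNA gene had 2.01 FPKM.

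The choice by gene ID had no cut-off, and lncRNA genes with a higher fold than LOC106503270 and LOC102179299 were not among the 4. LOC106502607, at rank 11, had 2.34 FPKM in the early-labelled, 11.1 FPKM in the peak-labelled and 2.65 FPKM in the late-labelled library, a fold of 4.19 over the higher of the others. Only 7 of the 44 reached 10 FPKM in the peak-labelled library, LOC102180344, LOC102178854 and LOC106503270 among them.

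**Figure D2:**
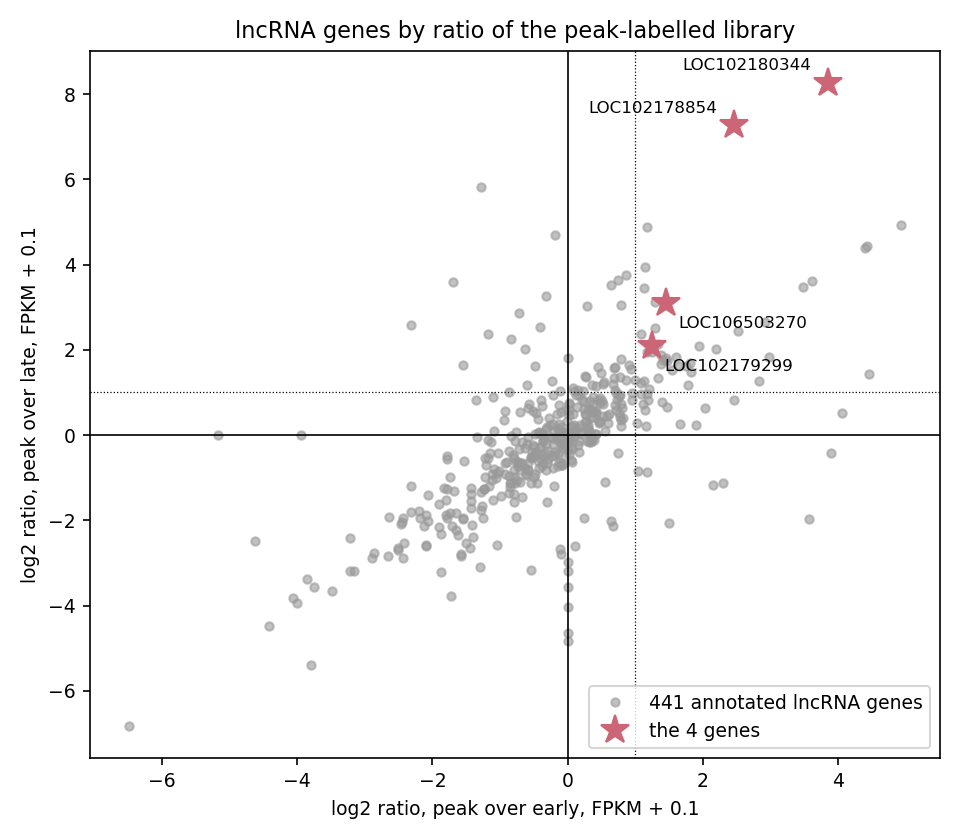
Each point is 1 of the 441 annotated lncRNA genes, with the log2 ratio of the peak-labelled over the early-labelled library on the horizontal axis and over the late-labelled library on the vertical axis, both after adding 0.1 FPKM, and dotted lines at a 2-fold ratio. The stars are the 4 genes, and LOC102180344 and LOC102178854 lie highest because they are listed at 0 in the late-labelled library, which makes their height depend on the 0.1 added.

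A listed 0 has to be read with care in the late-labelled library. LALBA, which encodes the milk protein alpha-lactalbumin, had 70053 FPKM in the early-labelled library, 15214 FPKM in the peak-labelled library and 0 in the late-labelled library. Of 5287 genes with at least 2 FPKM in the early-labelled and 10 FPKM in the peak-labelled library, 6 were listed at 0 in the late-labelled one, and LOC102180344 and LOC102178854 are 2 of those 6. The others were LALBA, SPINK9, a serine protease inhibitor gene, HES4, a transcription factor gene of the Notch pathway, and a gene ID without a matched symbol.

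Length went along with listed zeros. Among rows shorter than 400 nt, the class of LOC102178854, 7.59% were at 0 in the late-labelled library, 3.88% in the early-labelled and 3.51% in the peak-labelled. Among rows of 400 nt or more, the class of LOC102180344, the shares were 3.04%, 1.57% and 1.13%. Applying the same limits of 2 and 10 FPKM to rows, 18 of 6229 were at 0 in the late-labelled library, and 13 of the 18 were shorter than 400 nt. Read numbers per row are not used here, so whether the 0 of either gene reflects no transcript, too few reads or a failed estimate was not tested.

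The rows of LOC106503270 were alike in pattern. In the peak-labelled library they had between 3.98 and 6.11 FPKM, with a median of 4.31 FPKM. In the early-labelled library they had between 1.29 and 2.17 FPKM, with a median of 1.91 FPKM. In the late-labelled library they had between 0 and 0.946 FPKM, with a median of 0.552 FPKM.

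Each of these 7 rows was highest in the peak-labelled and lowest in the late-labelled library. The fold of peak-labelled over early-labelled ran from 2.08 for XLOC_037951 to 3.34 for XLOC_037955. The row XLOC_037954, at 6.11 FPKM in the peak-labelled library the highest of the 7, was the one listed at 0 in the late-labelled library. The level of LOC106503270 as a whole is a sum over 7 assembled pieces, and a level near 34 FPKM is not that of any single piece. The pieces share a gene ID and a locus and are not replicates of a condition.

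The rows of LOC102179299 were less alike. The row under the bare gene ID had 0.790 FPKM in the early-labelled, 3.60 FPKM in the peak-labelled and 0.837 FPKM in the late-labelled library, 4.30 times as high in the peak-labelled library as in the higher of the others. The row XLOC_029002 had 2.12, 3.46 and 0.744 FPKM in the same order of libraries and was 1.63 times as high, short of 2-fold. The rows nearly matched in the peak- and late-labelled libraries and differed in the early-labelled one.

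LOC106503270 shares its listed locus with SKAP1, an adaptor protein gene of T cell receptor signalling, and with SNX11, a sorting nexin gene of endosomal traffic. In the ARS1.2 assembly, whose table gave the gene names, LOC106503270 also lies inside SKAP1, with SNX11 beside it. The SKAP1 row under the bare gene ID had 1.21 FPKM in the early-labelled, 5.13 FPKM in the peak-labelled and 0.563 FPKM in the late-labelled library, a fold of 4.24 over the higher of the others. This SKAP1 row had the order of libraries and nearly the levels of the LOC106503270 rows.

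The further SKAP1 rows had another pattern. XLOC_038696 had 2.24 FPKM in the early-labelled, 1.78 FPKM in the peak-labelled and 1.22 FPKM in the late-labelled library. XLOC_038697 had 1.61, 2.87 and 2.08 FPKM in the same order, highest in the peak-labelled library but by 1.38-fold. Summed over its 3 rows, SKAP1 had 5.06, 9.77 and 3.86 FPKM, a fold of 1.93. SNX11 ran the other way, with 10.5 FPKM in the early-labelled, 8.89 FPKM in the peak-labelled and 11.6 FPKM in the late-labelled library. The library kit kept strand, but whether the quantification used it is not given in the sources used here, so reads of LOC106503270 and SKAP1 may be mixed.

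**Figure D3:**
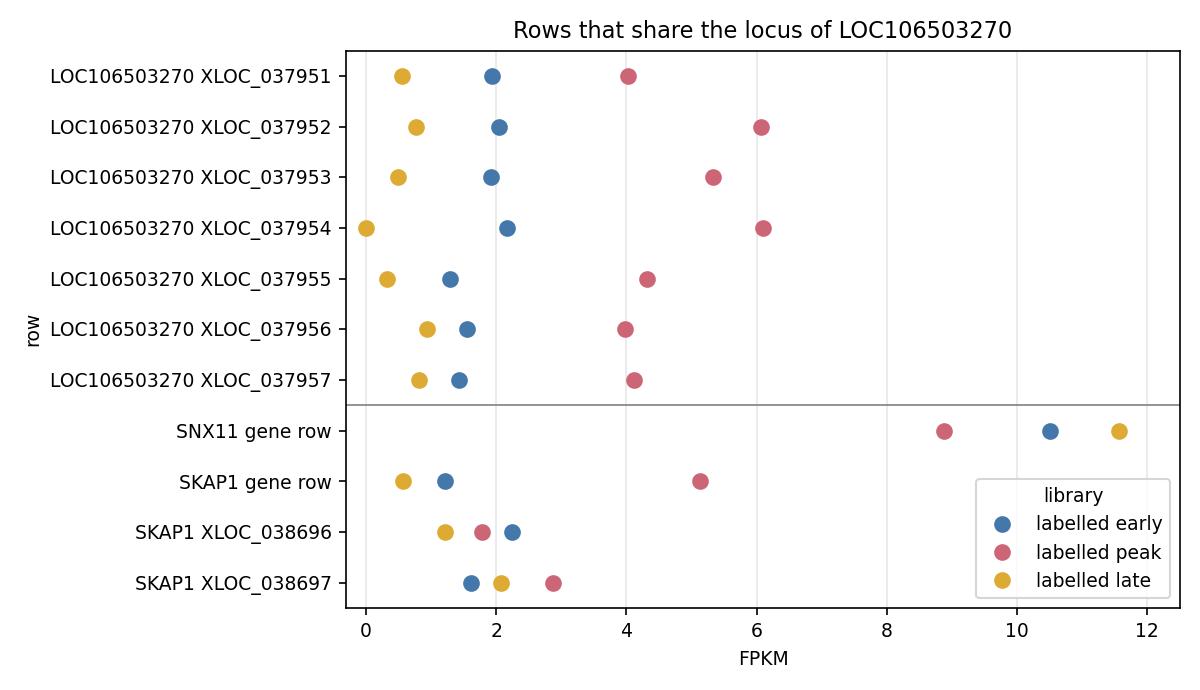
Each point is the FPKM of 1 row in the early-, peak- or late-labelled library, on a linear axis, for the 7 rows of LOC106503270 above the grey line and for the rows of SNX11 and SKAP1 with the same listed locus below it. The LOC106503270 rows and the bare SKAP1 row show late, early and peak from left to right, while the SNX11 row has its peak-labelled point at the left.

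Along the scaffolds, 79 rows lay within 200 kb of the 4 genes, the rows of the genes themselves left out. Of the 79, 53 were highest in the peak-labelled library, against 45.1% of all 50041 rows, and 25 were at least 2-fold higher there than in both others, a share of 31.6% against 14.5% of all rows. Of these 79 rows, 51 were assembled pieces without a gene ID, of which 21 were at least 2-fold higher (41.2%, against 16.7% of all rows without a gene ID) and 39 were highest in the peak-labelled library (76.5%, against 46.2%). Of 23 rows of protein-coding genes, 3 were at least 2-fold higher, 13.0% against 9.46% of all such rows.

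The sharing was uneven in distance and between the genes. Within 50 kb, 18 of 26 rows without a gene ID were at least 2-fold higher in the peak-labelled library (69.2%), and beyond 50 kb 3 of 25 were (12%), which is below the share of all rows without a gene ID. The rows within 50 kb came mainly from LOC106503270, with 15, and LOC102179299, with 8. Those beyond 50 kb came mainly from LOC102178854, with 12, and LOC102180344, with 11. Distance and gene therefore cannot be told apart in these counts. Rows beside one gene may be pieces of one transcript, so they are not independent.

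Rows near other lncRNA genes were counted in the same way. Within 50 kb of the other 40 lncRNA genes at least 2-fold higher in the peak-labelled library, 86 of 184 rows without a gene ID were at least 2-fold higher (46.7%). Within 50 kb of the 397 lncRNA genes below that ratio, 222 of 1871 were (11.9%). Beyond 50 kb and within 200 kb, the counts were 50 of 165 (30.3%) for the 40 genes and 387 of 2610 (14.8%) for the 397. A share above that of all rows was thus also found beside other lncRNA genes with the same pattern.

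**Figure D4:**
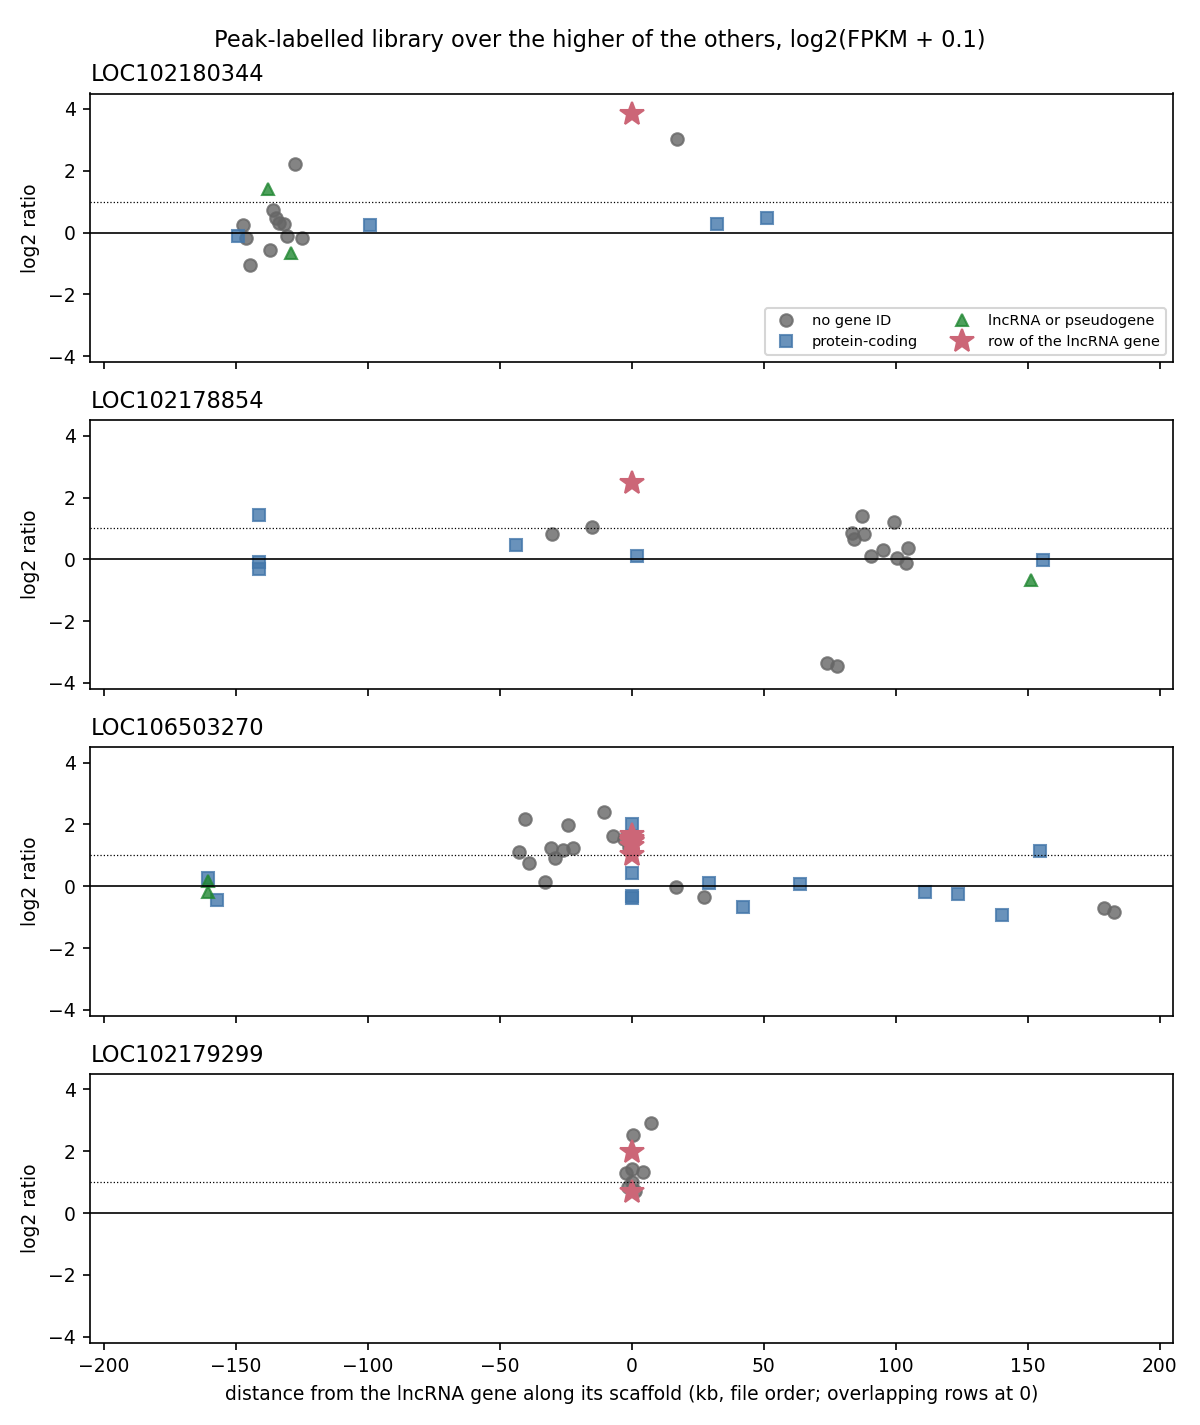
Each panel shows the rows within 200 kb of 1 lncRNA gene, with distance along the scaffold in kb on the horizontal axis, overlapping rows at 0, and on the vertical axis the log2 ratio of the peak-labelled library over the higher of the others after adding 0.1 FPKM. Grey circles are rows without a gene ID, blue squares protein-coding rows, green triangles lncRNA or pseudogene rows and stars rows of the gene itself, and the dotted line marks 2-fold. Rows above it gather beside LOC106503270 and LOC102179299, while protein-coding rows lie near 0 in most places.

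The closest row to LOC102180344 was XLOC_037253, a piece of 226 nt without a gene ID, 17.0 kb further along the scaffold. It had 6.93 FPKM in the early-labelled library, 57.1 FPKM in the peak-labelled library and 5.34 FPKM in the late-labelled library, a fold of 8.24. This was the highest FPKM in the peak-labelled library of any row without a gene ID near the 4 genes. It followed the lncRNA gene in the peak- and early-labelled libraries but was not listed at 0 in the late-labelled one.

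The protein-coding neighbours of LOC102180344 did not reach 2-fold. LOC102180880, at 32.5 kb, had 2.24 FPKM in the early-labelled, 2.76 FPKM in the peak-labelled and 0.851 FPKM in the late-labelled library. LOC102181154, at 51.3 kb, had 1.22, 1.73 and 0.278 FPKM in the same order. Both were highest in the peak-labelled and lowest in the late-labelled library, by 1.23-fold and 1.42-fold over the early-labelled one.

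On the other side of LOC102180344, LOC102179130 at 99.1 kb had 0.525, 0.944 and 0.789 FPKM in the early-, peak- and late-labelled libraries. HEATR6, a gene for a protein with HEAT repeats at 149.2 kb, had 10.4, 10.2 and 11.1 FPKM, almost level. The pseudogene LOC102169698 had its lowest level in the peak-labelled library, with 95.3, 60.3 and 80.5 FPKM.

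Another lncRNA gene, LOC102179411, lay 137.9 kb from LOC102180344 and was at least 2-fold higher in the peak-labelled library. It had 6.92 FPKM in the early-labelled, 18.5 FPKM in the peak-labelled and 5.38 FPKM in the late-labelled library, a fold of 2.68. The 11 pieces without a gene ID around it, all before LOC102180344 on the scaffold, were mixed. Of them 6 were highest in the peak-labelled library, and 1, XLOC_037142, was at least 2-fold higher, at 0.138, 1.78 and 0.305 FPKM. These shares, 54.5% and 9.09%, stand beside 46.2% and 16.7% of all rows without a gene ID.

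LOC102178854 lay 1.81 kb before TEX2, a gene for a lipid transfer protein of endoplasmic reticulum contacts, which had 9.83 FPKM in the early-labelled, 10.5 FPKM in the peak-labelled and 8.17 FPKM in the late-labelled library. The nearest protein-coding gene was thus almost level between libraries where the lncRNA gene differed by 5.65-fold. On the other side, ERN1, the stress sensor IRE1 of the endoplasmic reticulum, lay at 44.0 kb and had 9.23, 15.1 and 11.0 FPKM in the early-, peak- and late-labelled libraries, a fold of 1.37.

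Between ERN1 and LOC102178854 lay a pair of long pieces without a gene ID. XLOC_038952, at 15.2 kb from the lncRNA gene, had 2.83 FPKM in the early-labelled, 5.95 FPKM in the peak-labelled and 2.44 FPKM in the late-labelled library, a fold of 2.1. XLOC_038951, at 30.2 kb and closer to ERN1, had 2.21, 3.99 and 2.16 FPKM, a fold of 1.81. Both were above 0 in the late-labelled library and about as high there as in the early-labelled one.

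Farther from LOC102178854, the rows were mixed. PECAM1, an adhesion molecule of endothelium, had 47.4 FPKM in the early-labelled, 46.9 FPKM in the peak-labelled and 38.1 FPKM in the late-labelled library. LOC102178567, a protein-coding gene at 141.0 kb, had 1.04, 4.67 and 1.64 FPKM, a fold of 2.84, while PRR29, listed at the same locus, summed to 4.47, 3.86 and 2.97 FPKM over its rows. XLOC_038955 stood against the pattern, with 2.58 FPKM in the early-labelled and 0.147 FPKM in the peak-labelled library.

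The clearest run of neighbours stood beside LOC106503270. Within 42.9 kb before its locus lay 13 pieces without a gene ID, numbered XLOC_037937 to XLOC_037949 with XLOC_037951 the first row of the lncRNA gene. All 13 were highest in the peak-labelled library, 10 of them at least 2-fold higher than in both others, with a median fold of 2.63 and a range from 1.10 to 7.61. The shares of all rows without a gene ID were 46.2% and 16.7%. Their levels were low throughout, between 1.11 and 1.71 FPKM in the peak-labelled library, against 3.98 FPKM or more in the rows of the lncRNA gene.

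XLOC_037946, at 10.4 kb, had the highest fold of this run, with 0.180 FPKM in the early-labelled, 1.37 FPKM in the peak-labelled and 0.119 FPKM in the late-labelled library. XLOC_037944, at 24.1 kb, had the highest level, at 0.358, 1.71 and 0.170 FPKM. XLOC_037940, at 33.0 kb, was nearly level between the early- and peak-labelled libraries, at 1.02 and 1.12 FPKM, with 0.251 FPKM in the late-labelled one. All 13 were at least 2-fold higher in the peak-labelled than in the late-labelled library. The share of all rows with that ratio over the late-labelled library alone was not counted, so nothing is read from this.

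After the locus of LOC106503270, the run ended. None of the 4 pieces without a gene ID on that side was highest in the peak-labelled library, and their folds ran from 0.53 to 0.99. XLOC_037958, the nearest at 16.7 kb, had 0.938 FPKM in the early-labelled, 1.31 FPKM in the peak-labelled and 1.32 FPKM in the late-labelled library.

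Of the 7 protein-coding genes after the locus, 3 were highest in the peak-labelled library (42.9%, against 45.1% of all rows). CBX1, a heterochromatin protein gene at 29.1 kb, had 4.48, 4.87 and 4.06 FPKM in the early-, peak- and late-labelled libraries. NFE2L1, a transcription factor gene of the proteasome response at 42.2 kb, had 79.5, 58.3 and 92.2 FPKM and so was lowest in the peak-labelled library. COPZ2, a vesicle coat subunit gene, had 8.58, 9.04 and 8.12 FPKM.

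Farther on, CDK5RAP3 and PRR15L were highest in the late-labelled library, at 12.6 and 32.8 FPKM against 11.1 and 27.3 FPKM in the peak-labelled one. SP2, a gene for a zinc finger transcription factor at 154.8 kb, had 0.470, 1.16 and 0.337 FPKM and was the only protein-coding row on this side at least 2-fold higher.

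On the far side before the run, the developmental genes HOXB2 and HOXB3 were low. HOXB2 had 1.22, 0.867 and 0.650 FPKM in the early-, peak- and late-labelled libraries. HOXB3 had 0.593 and 0.742 FPKM and was listed at 0 in the late-labelled library. The lncRNA gene LOC102169699, listed at the HOXB3 locus, was nearly level with 5.45, 6.89 and 6.49 FPKM.

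All 8 rows within 200 kb of LOC102179299 lacked a gene ID and lay within 7.20 kb of it, and all 8 were highest in the peak-labelled library. Of these, 6 were at least 2-fold higher than in both others, and all 8 were at least 2-fold higher than in the late-labelled library. Of all rows without a gene ID, 46.2% were highest in the peak-labelled library and 16.7% at least 2-fold higher than in both others. For the ratio over the late-labelled library alone, the share of all rows was again not counted. XLOC_029306, at 2.28 kb before the gene, was the most abundant, with 3.75 FPKM in the early-labelled, 9.45 FPKM in the peak-labelled and 0.478 FPKM in the late-labelled library. It exceeded the lncRNA gene itself in the peak-labelled library.

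On the far side of LOC102179299, XLOC_029005 at 0.459 kb had 0.595, 3.86 and 0.330 FPKM, a fold of 6.50. XLOC_029008, the farthest of the 8 rows, had 0.142, 1.85 and 0.158 FPKM, a fold of 11.7 from low levels. XLOC_029006 had 1.22 and 2.05 FPKM and was the row of the 8 listed at 0 in the late-labelled library. In ARS1.2, LOC102179299 overlaps MSC, a gene for the transcription factor musculin, and lies between TRPA1, an ion channel gene, and EYA1, a developmental regulator gene. No deposited row was matched to the gene IDs of MSC, TRPA1 and EYA1, so they have no values here.

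The genes with the most similar profile were found by the Euclidean distance between the shares of the 3 libraries, among genes with at least 10 FPKM in a library. The measure rests on 3 libraries, each a single pool, and says nothing of shared function or control. PLEKHS1, a pleckstrin homology domain gene, was nearest to LOC102180344 (distance 0.0235 on shares from 0 to 1), with 2.34 FPKM in the early-labelled, 28.2 FPKM in the peak-labelled and 0.126 FPKM in the late-labelled library. LOC102179515 followed with 1.89, 48.1 and 0.410 FPKM, and SPINK9 with 6.06, 149.1 and 0 FPKM.

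CXCL13, a chemokine that attracts B cells, was nearest to LOC102178854 (distance 0.0264), with 2.15 FPKM in the early-labelled, 10.8 FPKM in the peak-labelled and 0.0874 FPKM in the late-labelled library. LOC102175177 came next with 8.17, 45.3 and 1.11 FPKM. JAK3, a kinase of cytokine receptors on lymphocytes, had 3.36, 22.7 and 1.10 FPKM. The protein-coding genes near to this profile were thus not at 0 in the late-labelled library.

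CD3G, a subunit of the T cell receptor complex, was nearest to LOC106503270 (distance 0.0104), with 4.91 FPKM in the early-labelled, 13.8 FPKM in the peak-labelled and 1.76 FPKM in the late-labelled library. The peak-labelled library held 67.4% of the CD3G sum and 67.6% of the LOC106503270 sum. S100A9, a calcium-binding protein of neutrophils and monocytes, had 4.84, 13.8 and 1.84 FPKM. LOC102171786 had 23.1, 62.4 and 5.51 FPKM.

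PSTPIP1, a cytoskeletal adaptor of blood cells, was nearest to LOC102179299 (distance 0.00522), with 4.96 FPKM in the early-labelled, 11.8 FPKM in the peak-labelled and 2.58 FPKM in the late-labelled library. ZNF521, a zinc finger gene, had 4.88, 11.6 and 2.51 FPKM. SDC1, a cell surface proteoglycan of epithelium and plasma cells, had 6.84, 16.0 and 3.65 FPKM.

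Among lncRNA genes, the nearest to LOC102180344 and to LOC102178854 was in each case the other of this pair, at a distance of 0.125. LOC102188339 was nearest to both LOC106503270 and LOC102179299, with 19.7 FPKM in the early-labelled, 50.1 FPKM in the peak-labelled and 11.4 FPKM in the late-labelled library. LOC102179411, the lncRNA gene on the scaffold of LOC102180344, came second for both.

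Most marker genes of immune cells were also highest in the peak-labelled library, and so were the sums of some other lists, given below. The T cell list (CD3D, CD3E, CD3G and CD2) summed to 13.8 FPKM in the early-labelled, 36.8 FPKM in the peak-labelled and 5.63 FPKM in the late-labelled library. Of its 4 genes, 3 were at least 2-fold higher in the peak-labelled library than in both others, against 9.29% of all 14667 genes. CD3E was the exception, listed at 0 in the early- and peak-labelled libraries and at 1.43 FPKM in the late-labelled one. The list held 24.6%, 65.4% and 10.0% of its sum in the 3 libraries, and its part in the levels of the 4 lncRNA genes was not tested.

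All 5 genes of the B and plasma cell list were highest in the peak-labelled library, 4 of them at least 2-fold. Of all rows, 45.1% were highest in the peak-labelled library, and 9.29% of all genes were at least 2-fold higher than in both others. The list summed to 283.5, 493.5 and 349.4 FPKM in the early-, peak- and late-labelled libraries, but JCHAIN, the joining chain of secreted antibody, carried most of each sum, with 266.2, 428.7 and 336.7 FPKM, and was short of 2-fold. Without JCHAIN, left out after the values were seen, the other 4 genes summed to 17.3, 64.9 and 12.8 FPKM, so that the late-labelled library was lowest. The 3 macrophage markers measured were all highest in the peak-labelled library, at sums of 32.5, 42.0 and 21.0 FPKM, none by 2-fold.

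Milk genes ran the other way. Of the 6 genes of the milk synthesis list, 5 were lowest in the peak-labelled library, and LALBA was the exception with its listed 0 in the late-labelled library. The list summed to 209928 FPKM in the early-labelled, 59968 FPKM in the peak-labelled and 155885 FPKM in the late-labelled library. Without LALBA the sums were 139875, 44755 and 155885 FPKM, so the peak-labelled library stayed lowest while the order of the early- and late-labelled libraries turned.

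The 6 luminal epithelium markers were divided. KRT8, KRT18 and CDH1 were highest in the peak-labelled library, and KRT19, EPCAM and ELF5 in the early-labelled one. The list summed to 1577, 984.0 and 1526 FPKM in the early-, peak- and late-labelled libraries, and ELF5, a transcription factor of secretory cells, at 879.2, 243.5 and 875.4 FPKM, set that order. Without ELF5 the sums were 697.7, 740.5 and 650.3 FPKM, highest in the peak-labelled library. The fibroblast list summed to 409, 427 and 322 FPKM and the basal and myoepithelial list to 185, 193 and 169 FPKM. Both sums were thus highest in the peak-labelled library, with 2 of 5 genes of each list highest there. The endothelium and adipocyte sums were lowest in the peak-labelled library, and the 1 skeletal muscle gene measured was highest in the late-labelled one. Whether these shifts bear on the lncRNA genes was not tested.

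**Figure D5:**
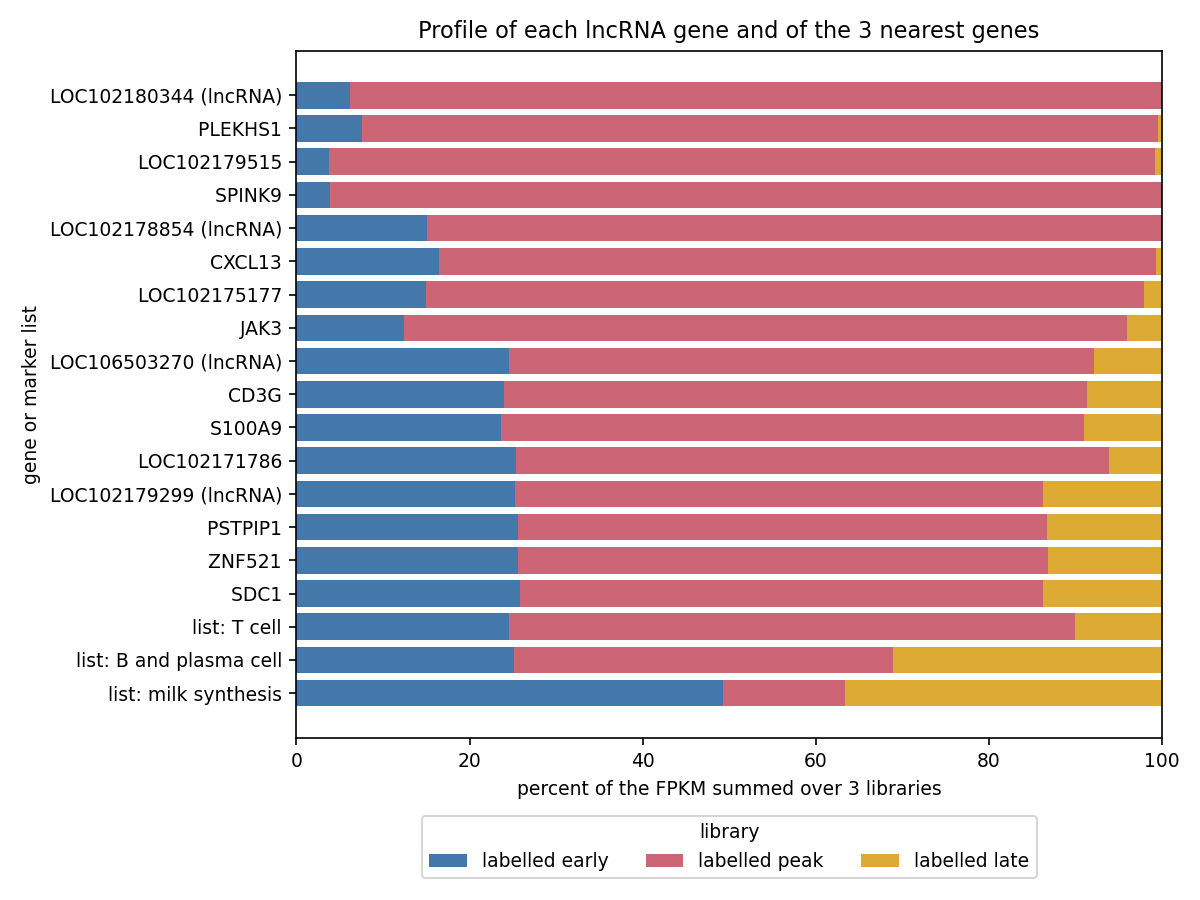
Each bar splits the FPKM summed over the 3 libraries into the percent held by the early-, peak- and late-labelled library, for each of the 4 lncRNA genes, for the 3 genes nearest to it in these shares, and for 3 marker lists. The peak-labelled share of LOC106503270 (67.6%) stands close to that of CD3G (67.4%) and of the T cell list (65.4%), while the milk synthesis list has 14.1%. CD3G was picked for its closeness and is itself in the T cell list, so nothing is read from this likeness. The other marker lists are not drawn.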

How the data were processed

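Per the labels and the study's methods, the authors trimmed reads, mapped them with TopHat2 2.0.9, assembled them with Cufflinks 2.1.1 and Cuffmerge, and computed FPKM with Cuffdiff. Short, single-exon or little-read transcripts were stated to be removed. They deposited FPKM for 50041 rows in 1 column per library. The methods name more than 1 goat genome version, and which one the scaffolds belong to is not given in the sources used here. Starts were taken as counted from 0 and raised by 1. Of values above 0, 41.2%, 46.7% and 41.7% (early, peak, late) had 7 digits, mostly ending in 5, as averages of 2 values of 6 digits would. Read numbers per row were not used, so depth per row is unknown.

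Rows were matched by gene ID to the ARS1.2 table (13864 of 14667 IDs) for names and gene order only, and rows of an ID were summed. Calls were ratios of at least 2 over both other libraries, without pseudocount or test. The fold calls, distances and profile ranking were tested on simulated data. The members and lists were chosen with earlier results of these data known. Genes named are the members, neighbouring rows within 200 kb (gene IDs, nearest first, up to 10 per member, and the highest row without one), the 3 nearest profiles overall and among lncRNA genes, and further rows chosen after their values were seen. Markers and other lncRNA genes give context, and the marker lists for basal cells, adipocytes, endothelium, fibroblasts and skeletal muscle had 0, 0, 0, 1 and 0 genes at least 2-fold higher in the peak-labelled library. Of the neighbouring genes, 1 is not reported here. Promoter motifs were not searched, since no sequence was used. Alternatives were pseudocounts, fold, window, filter and scaling. Python 3.11.15, numpy 2.4.6, pandas 2.3.3 and matplotlib 3.10.9 were used.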

Additional observations from a re-analysis of the deposited data

How the results depend on the processing

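Every alternative left each of the 4 lncRNA genes highest in the peak-labelled library. In the order LOC102180344, LOC102178854, LOC106503270 and LOC102179299, the fold over the higher of the others was 14.4, 5.49, 2.74 and 2.38 with a pseudocount of 0.1 FPKM, 10.4, 4.40, 2.62 and 2.06 with 1 FPKM, 15.6, 5.84, 2.84 and 2.50 centred on the median ratio, and 18.1, 6.78, 3.30 and 2.91 scaled to the sum without the 10 highest rows. With only the row of highest FPKM summed over the 3 libraries, it was 2.98 for LOC106503270 (XLOC_037952) and 1.63, below 2-fold, for LOC102179299 (XLOC_029002). By FPKM in the peak-labelled library other rows were highest, XLOC_037954 with a fold of 2.82 and the bare row of LOC102179299 with 4.30. Of the neighbouring rows, 25 of 79 were at least 2-fold higher (31.6%, against 14.5% of all rows), and within 1 Mb 40 of 207 were (19.3%). Without those of LOC106503270, a setting chosen after seeing the data, 13 of 47 were (27.7%). With a pseudocount of 1 FPKM, which lowers ratios of low values by construction, 10 of 79 were (12.7%). The share of all rows with that pseudocount was not counted. Over all genes, 1363 were at least 2-fold higher, 243 at 4-fold and 586 with a pseudocount of 1 FPKM, and over lncRNA genes 44, 11 and 19. A window of 50 kb, a fold of 1.5, a filter of 1 FPKM, leaving out overlapping rows and keeping lncRNA rows apart moved no count by over 1.5 times. The share of neighbouring rows did rise with the window of 50 kb, to 54.3% (19 of 35). No paired analysis was possible because no stage had a further library, and for the same reason leaving out a replicate was not run. FPKM of single pools without read numbers limit the precision of every value.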
